A study of Mus musculus with 10 samples.

Results

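Transcripts characteristic of kidney were followed, segment by segment of the nephron, in whole lungs of mice. The set holds 35 genes out of 18194 that the arrays measured, and it runs from the glomerulus (1 gene) through the proximal tubule (23), the thick ascending limb (3), genes of several segments (3) and the distal tubule (3) to the collecting duct (2). The genes were chosen with their values on these same 10 arrays known, because kidney transcripts had been seen to vary together between the animals. Their levels are therefore given as a description of these animals.

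All animals were adult females of the inbred strain C57BL/6, with no genetic modification named. The 5 arsenic animals drank water with arsenic at 50 ppm for 12 weeks from 8 weeks of age, and the 5 control animals drank deionized water. The labels name the compound as arsenate in the study's design and as arsenite in the fields of the single samples. Each animal gave 1 lung RNA sample and 1 Affymetrix array, on which a probe set, a group of short DNA probes, reads 1 transcript as a log2 value, so that a step of 1 is a doubling of the signal. The titles give each group its own first number, whose meaning is not stated, and whatever it marks and the exposure cannot be told apart.

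The kidney filters blood in the glomerulus and recovers most of what is filtered in the proximal tubule, whose cells are packed with transporters for phosphate, amino acids, glucose and organic anions and make glucose from other substrates. The thick ascending limb takes up sodium, potassium and chloride and secretes uromodulin, the most abundant protein of normal urine. The distal tubule and the collecting duct then set the final salt and water content through the thiazide-sensitive cotransporter and the aquaporins. Healthy lung makes few of these proteins, although it shares some, such as megalin, and has close relatives of others.

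The RNA was that of lung: surfactant protein C (Sftpc) read 15.95 to 16.18 and the club cell protein Scgb1a1 16.17 to 16.32 over the 10 arrays. Array medians lay between 4.11 and 4.26, and any pair of arrays correlated at 0.990 to 0.997 over all probe sets. The median of the whole table, 4.20, served as the mark between dim and brighter probe sets. The labels number every animal separately, which makes the 5 replicates of a group 5 different mice.

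In arsenic animal 4, 17 of the 35 kidney genes stood at least 1 log2 unit, or 2-fold, above the median of the other 9 arrays. That step was met there by 0.544% of all 18194 genes. Control animal 4 had 11 such kidney genes (1.12% of all genes), arsenic animal 1 had 7 (0.159%), arsenic animal 3 had 4 (1.31%) and arsenic animal 2 had 1 (0.280%). No kidney gene met it in control animal 1 (0.302% of all genes), control animal 2 (0.363%), control animal 3 (0.247%), control animal 5 (0.258%) or arsenic animal 5 (0.418%). Control animal 4 was the only control with such a gene. Its title gives a dose of 0 and its treatment field names it a control, but that field holds no dose, so what is said of this animal as a control rests on those labels. The counts of 4 and 1 in arsenic animals 3 and 2 fell to 2 and 0 when some single other animals were left out. Whole lung was measured, so a change in the number of cells of a type and in RNA per cell cannot be told apart. Which cells or tissue gave the kidney transcripts was not tested.

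All 17 genes were highest in arsenic animal 4, which their choice by that animal made likely. Of the 17, 13 were lowest in control animal 1. Control animal 4 came second for 8 of them, arsenic animal 1 for 7 and arsenic animal 3 for 2. Among the 50 genes that stood highest above the other arrays in arsenic animal 4, 16 were members of the set. The corresponding number was 9 in arsenic animal 1 and 3 in control animal 4. In arsenic animal 4 the step of 1 log2 fell in a gap of the set. The gene just inside it there was Slc22a8, 1.62 above the other arrays, and those just outside were Slc5a2 and Slc13a3, both 0.71 above. Genes lay close to the step in the next animals, whose counts depend more on it. Examples are Fbp1 (1.04) and Slc34a1 (0.95) in control animal 4, and Kap (1.02) and Slc27a2 (0.92) in arsenic animal 1.

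**Figure D1:**
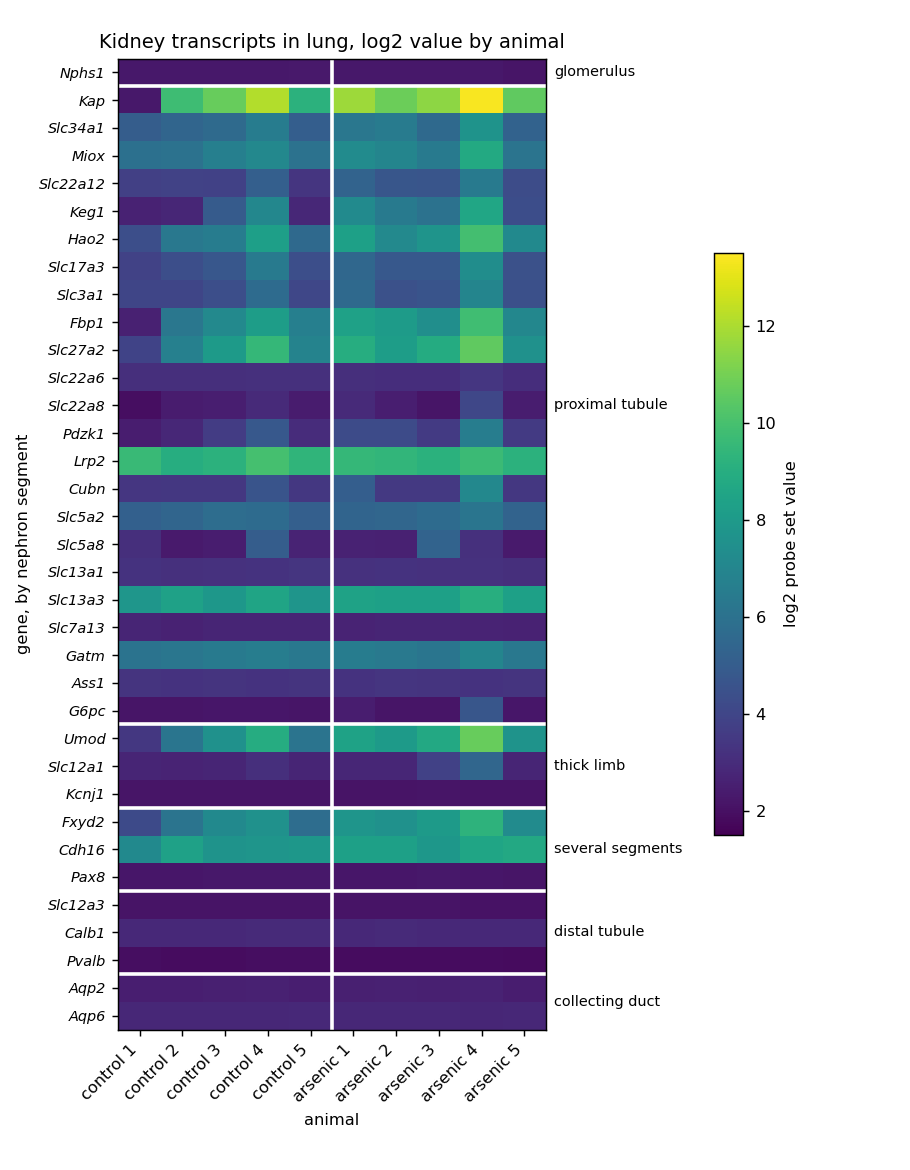
Log2 values of the 35 kidney genes (rows, ordered along the nephron, white lines between segments) in each of the 10 animals (columns, controls left of the vertical white line); the colour bar gives the log2 probe set value. Arsenic animal 4 holds the brightest column and control animal 1 the darkest, with Kap running from 2.26 to 13.40, while the rows of the distal tubule and collecting duct stay dark throughout.

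Kap, the kidney androgen-regulated protein of the mouse proximal tubule, spanned the widest range. It read 2.26, 9.79, 10.73, 12.12 and 9.21 in control animals 1 to 5, and 11.75, 10.81, 11.46, 13.40 and 10.56 in arsenic animals 1 to 5. Only control animal 1 was dim, and control animal 4 exceeded every arsenic animal but arsenic animal 4. A second Kap probe set had the same highest, second and lowest animals, with 13.03 in arsenic animal 4, 11.49 in control animal 4 and 2.44 in control animal 1. The Kap gene lies at chr6:133849855-133853667 of GRCm38.

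Slc27a2, which imports and activates very-long-chain fatty acids, read 3.90, 6.74, 8.06, 9.48 and 6.88 in the controls and 8.98, 8.18, 8.86, 10.56 and 7.55 in the arsenic animals. Fbp1, the fructose bisphosphatase of glucose synthesis, read 2.61, 6.26, 7.13, 8.16 and 6.70 in the controls against 8.38, 8.08, 7.42, 9.81 and 7.05. Hao2, a peroxisomal hydroxyacid oxidase, read 4.39, 6.29, 6.53, 8.25 and 5.62 against 8.30, 7.17, 7.69, 9.92 and 7.20. For these 3 enzymes the groups overlapped, since control animal 4 lay within the arsenic range each time, and control animal 1 was lowest.

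Keg1, an acyltransferase-like gene expressed in kidney, was at the bottom of the scale in several animals. Its values were 2.67, 2.79, 4.94, 7.04 and 2.85 in the controls and 7.25, 6.43, 6.03, 8.60 and 4.32 in the arsenic animals. Control animals 1, 2 and 5 were thus dim and alike, while control animals 3 and 4 stood within the arsenic range. Miox, the first enzyme of inositol breakdown, read 5.95, 6.02, 6.69, 7.11 and 6.02 in the controls and 7.29, 6.98, 6.44, 8.77 and 6.13 in the arsenic animals. It kept a value above the table median even in control animal 1, and its spread was narrower than that of Kap.

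Among the apical transporters, Slc34a1, the sodium phosphate cotransporter of the proximal tubule, read 5.03, 5.40, 5.66, 6.55 and 5.09 in the controls and 6.24, 6.50, 5.61, 7.66 and 5.27 in the arsenic animals. Slc22a12, the urate exchanger URAT1, read 3.78, 3.89, 3.81, 5.13 and 3.37 against 5.33, 4.71, 4.67, 6.38 and 4.29. Slc3a1, the partner chain of the cystine transporter, read 4.03, 4.03, 4.40, 5.69 and 4.06 against 5.59, 4.49, 4.64, 6.96 and 4.41. In each case arsenic animal 4 was highest, with control animal 4 and arsenic animal 1 among the next 3.

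Slc17a3, a urate and organic anion transporter, had 6.38 in control animal 4 and 7.36 in arsenic animal 4, and between 3.85 and 5.51 in the other 8 animals. Pdzk1, a scaffold protein that holds such transporters at the brush border, had 4.79 and 6.58 in the same animals and between 2.44 and 4.24 elsewhere. Slc22a8, the basolateral organic anion transporter OAT3, was above 3 in arsenic animal 4 alone, at 4.06, and never passed the table median. Its second probe set stayed between 2.27 and 2.35. Over the 7 high genes with further probe sets, arsenic animal 4 was highest in 6 of 9 such sets and at least 1 log2 unit above in 5.

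Cubn, the receptor that takes up filtered proteins together with megalin, read 3.39, 3.46, 3.45, 4.64 and 3.46 in the controls and 5.08, 3.50, 3.47, 7.11 and 3.46 in the arsenic animals. It was dim and nearly equal in 7 animals and brighter in the same 3 animals that led for the other genes. A second Cubn probe set gave 5.07 in arsenic animal 4, 3.16 in control animal 4 and 2.77 in arsenic animal 1, with the lowest value, 2.23, in control animals 1 and 2. G6pc, the glucose-6-phosphatase that ends glucose synthesis, read 4.70 in arsenic animal 4 and 2.46 in arsenic animal 1, and between 2.17 and 2.22 in the remaining animals. It therefore passed the table median in a single animal.

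The other segment with high members was the thick ascending limb. Umod, which encodes uromodulin, read 3.45, 6.17, 7.59, 8.94 and 6.14 in the controls and 8.42, 8.04, 8.74, 10.73 and 7.66 in the arsenic animals. A second Umod probe set ran from 2.40 in control animal 1 to 10.71 in arsenic animal 4, with 8.97 in control animal 4. Both thus placed the same animals first, second and last. Slc12a1, the furosemide-sensitive sodium, potassium and chloride cotransporter, had 5.46 in arsenic animal 4 and 3.80 in arsenic animal 3, then 3.11 in control animal 4, and between 2.71 and 2.78 elsewhere. Its second probe set stayed between 2.78 and 2.96 and was lowest in arsenic animal 4, so the Slc12a1 pattern rests on 1 probe set. Kcnj1, the potassium channel ROMK of this segment, lay between 2.13 and 2.19 in all 10 animals.

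Fxyd2, the gamma subunit of the sodium pump in several segments, read 4.21, 6.11, 7.18, 7.58 and 5.77 in the controls and 7.77, 7.55, 8.06, 9.25 and 7.31 in the arsenic animals. Arsenic animal 3 was second here, and control animal 4 exceeded arsenic animals 2 and 5 only. Cdh16, the kidney-specific cadherin, read 7.21, 8.38, 7.65, 7.77 and 7.84 in the controls and 8.33, 8.30, 7.86, 8.54 and 8.75 in the arsenic animals. It was bright on every array, highest in arsenic animal 5 and no higher in control animal 4 than in control animals 2 and 5. Pax8, a transcription factor of the kidney and thyroid lineages, stayed between 2.18 and 2.29.

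**Figure D2:**
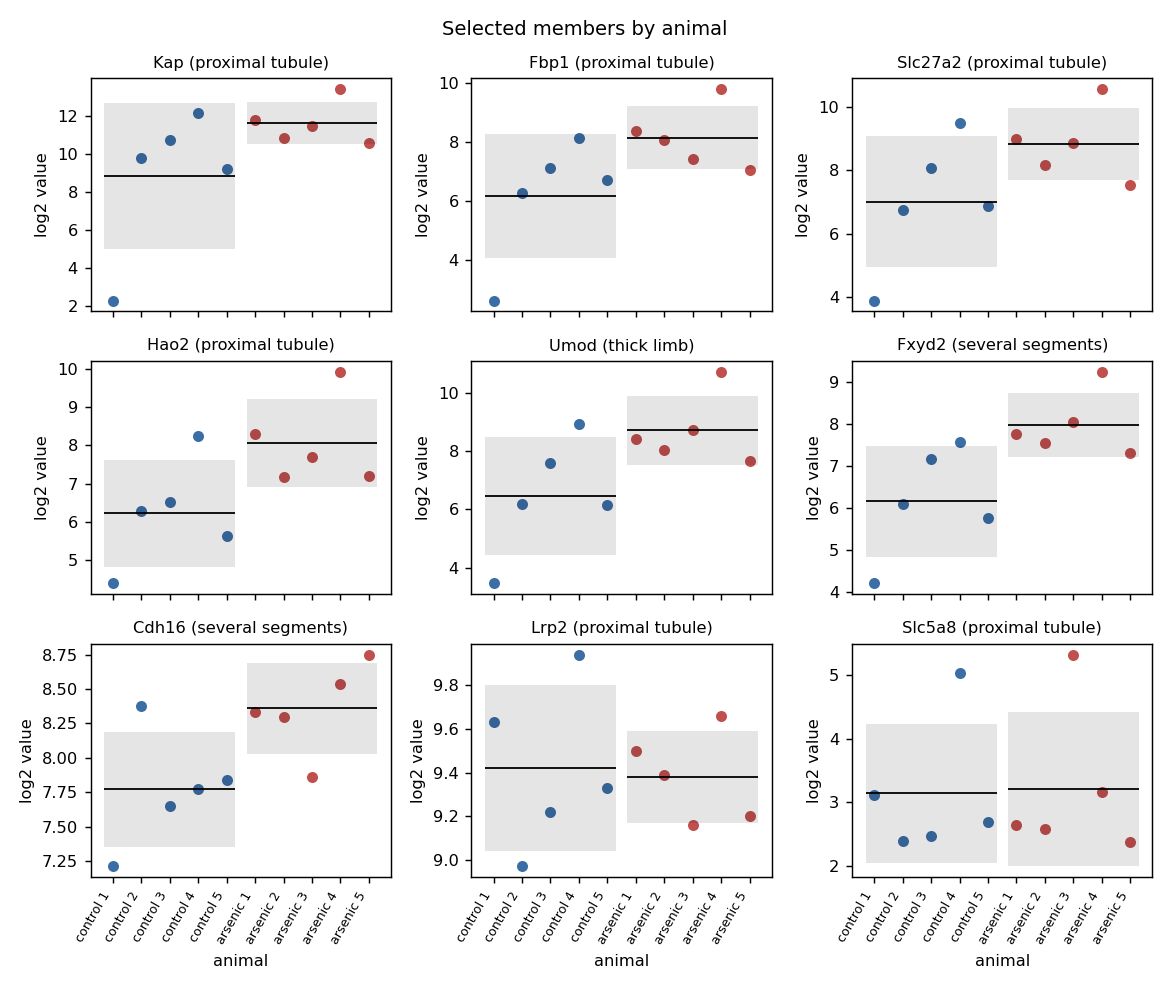
Log2 values (y axes, each with its own scale) of 9 kidney genes in the 10 animals (x axis; blue, controls; red, arsenic animals), with the group mean as a line and 1 SD to either side as a grey band (n = 5 per group). Kap, Fbp1, Slc27a2, Hao2, Umod and Fxyd2 share a highest value in arsenic animal 4 and a lowest in control animal 1, whereas Cdh16, Lrp2 and Slc5a8 rank the animals otherwise.

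Other proximal tubule genes were measured well above the dim range and varied little. Lrp2, which encodes megalin, read 9.63, 8.97, 9.22, 9.94 and 9.33 in the controls and 9.50, 9.39, 9.16, 9.66 and 9.20 in the arsenic animals. Control animal 1, lowest for 13 of the 17 high genes, thus ranked next after control animal 4 and arsenic animal 4 for Lrp2. Slc13a3, a dicarboxylate transporter, ran from 7.77 in control animal 5 to 9.03 in arsenic animal 4. Gatm, the first enzyme of creatine synthesis, ran from 6.07 in control animal 1 to 6.97 in arsenic animal 4, and Slc5a2, the glucose transporter SGLT2, from 5.11 in control animal 5 to 6.15 in arsenic animal 4. These 3 were highest in the same animal as the 17 genes but by less than 1 log2 unit. No further probe set of Slc13a3 or Slc5a2 was highest there. The brightest further set of each was highest in arsenic animal 1, at 5.20 and 4.23, against 4.72 and 4.01 in arsenic animal 4.

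Slc5a8, a sodium-coupled monocarboxylate transporter, followed another order. It read 3.12, 2.39, 2.48, 5.03 and 2.69 in the controls and 2.64, 2.58, 5.31, 3.16 and 2.38 in the arsenic animals. Control animal 4 and arsenic animal 3 were high, and arsenic animal 4 was not. Those 2 animals also had the most genes of any kind standing above the other arrays, 203 and 239. They had the highest mean levels of 7 heart genes, 10.65 and 10.85, and adipose means of 7.87 and 8.65. Whether these had a part in the Slc5a8 values was not tested.

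Members of the remaining segments were dim in every animal. Besides Kcnj1 and Pax8, the nephrin gene Nphs1 of the glomerular podocyte, the thiazide-sensitive cotransporter Slc12a3, the calcium-binding proteins Calb1 and Pvalb of the distal tubule, and the aquaporins Aqp2 and Aqp6 of the collecting duct never passed the table median. Neither did 4 proximal tubule genes: Slc22a6 (the organic anion transporter OAT1), Slc13a1 (the sodium sulphate cotransporter), Slc7a13 (an amino acid transporter of the late proximal tubule) and the argininosuccinate synthase Ass1. These 12 genes took values between 1.87 and 3.42, and none ranged over more than 0.37 log2 units. The largest range belonged to Slc22a6, at 3.42 in arsenic animal 4 and between 3.05 and 3.15 elsewhere. By segment, 14 of 23 proximal tubule genes, 2 of 3 thick limb genes and 1 of 3 genes of several segments stood high in arsenic animal 4, against 0 of 1 glomerular, 0 of 3 distal tubule and 0 of 2 collecting duct genes.

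Each gene was read by the probe set with the highest mean, and for dim genes that choice mattered. A second Slc12a3 probe set read 3.02 in arsenic animal 4 and between 1.81 and 1.96 in the other 9 animals. At 1.16 above their median it met the step of 1 log2 unit. The count of 0 of 3 distal tubule genes thus depends on the probe set chosen. Another for Calb1 read 3.36 in arsenic animal 4 and 3.30 in arsenic animal 1, against 2.55 to 2.79 elsewhere. A second for Slc13a1 read 2.76 in arsenic animal 1 and 2.53 in arsenic animal 4, against 2.11 to 2.19 elsewhere. These were noticed after the values were seen, among 18 further probe sets of genes not high in arsenic animal 4, of which 4 stood at least 0.2 log2 units above there, the other being a second probe set of Lrp2. These 3 remained below the table median.

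Promoter sequences of the members were examined, with the 17 genes picked for standing high in arsenic animal 4 read as 1 group. The letters searched were GTTAAT, on both strands (a copy on the opposite strand appears as ATTAAC). They form part of the recognition sequence of hepatocyte nuclear factor 1, a transcription factor of proximal tubule and liver. Within 250 bases upstream of the start they occurred in 6 of the 16 high genes with a RefSeq promoter (37.5%), in 1 of the 9 uniformly dim genes (11.1%), in 0 of the 4 others and in 2023 of 27025 mouse genes (7.49%). The 6 were Slc34a1, Miox, Hao2, Slc22a8, G6pc and Umod, and the dim gene was Slc22a6. For Hao2 and Slc22a8 the promoter table used a start 2146 and 1928 bases inside the start in the gene table. The shares are descriptions of letters in this window and were not tested. The following stretches, with the motif in capitals, show it in 4 high genes and in the dim one. They are 5′ to 3′ on the strand of the gene in GRCm38.p6, and distances run from the first base of the motif to the start used in the promoter table, which for Slc34a1 is 55399648, 26 bases inside the start in the gene table.
Umod, chr7:119479429-119479494, minus strand, motif starting 202 bases before the gene start: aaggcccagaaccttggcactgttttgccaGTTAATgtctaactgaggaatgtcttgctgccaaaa
Slc34a1, chr13:55399557-55399622, plus strand, 61 bases before: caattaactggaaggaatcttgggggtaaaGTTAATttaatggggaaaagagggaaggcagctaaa
Miox, chr15:89334301-89334366, plus strand, 142 bases before, motif on the opposite strand: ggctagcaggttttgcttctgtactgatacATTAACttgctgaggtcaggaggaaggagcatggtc
G6pc, chr11:101367466-101367530, plus strand, 221 bases before: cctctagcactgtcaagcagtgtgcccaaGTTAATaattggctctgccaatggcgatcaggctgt
Slc22a6, chr19:8617910-8617975, plus strand, 56 bases before: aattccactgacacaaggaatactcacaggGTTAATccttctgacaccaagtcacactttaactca
Slc34a1 held the letters again on the other strand, 89 bases before its start, and that copy is left in lower case in its stretch above.

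The size of the gap to arsenic animal 4 was read in 9 of the high genes that were above the table median on at least 9 arrays. As these were picked for standing high in that animal, lower levels elsewhere were fixed by the choice, and the sizes are a description. The genes were Kap, Slc34a1, Miox, Hao2, Slc17a3, Fbp1, Slc27a2, Umod and Fxyd2. The median level was 32.0% of that in arsenic animal 4 for control animal 4, 33.4% for arsenic animal 1, 24.1% for arsenic animal 3 and 19.3% for arsenic animal 2. It was 16.7% for control animal 3, 14.8% for arsenic animal 5, 8.92% for control animal 5 and 8.55% for control animal 2. On these 9 genes control animal 4 lay between arsenic animals 1 and 3, and control animal 3 above arsenic animal 5. Lrp2, Cdh16, Gatm, Slc5a2 and Slc13a3, above the table median on all 10 arrays, are not among the 9, and Lrp2 and Cdh16 ranked the animals otherwise.

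Within an animal the 9 genes lay close to each other at the upper end. In arsenic animal 1 they were 1.41 (Slc34a1) to 2.31 (Umod) log2 units below arsenic animal 4, and in control animal 4 they were 0.98 (Slc17a3) to 1.79 (Umod) below. The span was 2.26 (Slc34a1) to 4.56 (Umod) in control animal 2 and 2.57 (Slc34a1) to 4.59 (Umod) in control animal 5. In control animal 1 it reached from 2.63 for Slc34a1 to 11.14 for Kap. In that animal 5 of the 9 values were below the table median, in the dim range where differences can be understated. Its median of 2.17% was the level of Hao2, which read 4.39 there, little above that mark. It is not taken as a measured level. Over the other 8 animals the genes with the largest drops were Umod (4.59), Hao2 (4.29) and Kap (4.19), each with its largest drop in control animal 5.

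**Figure D3:**
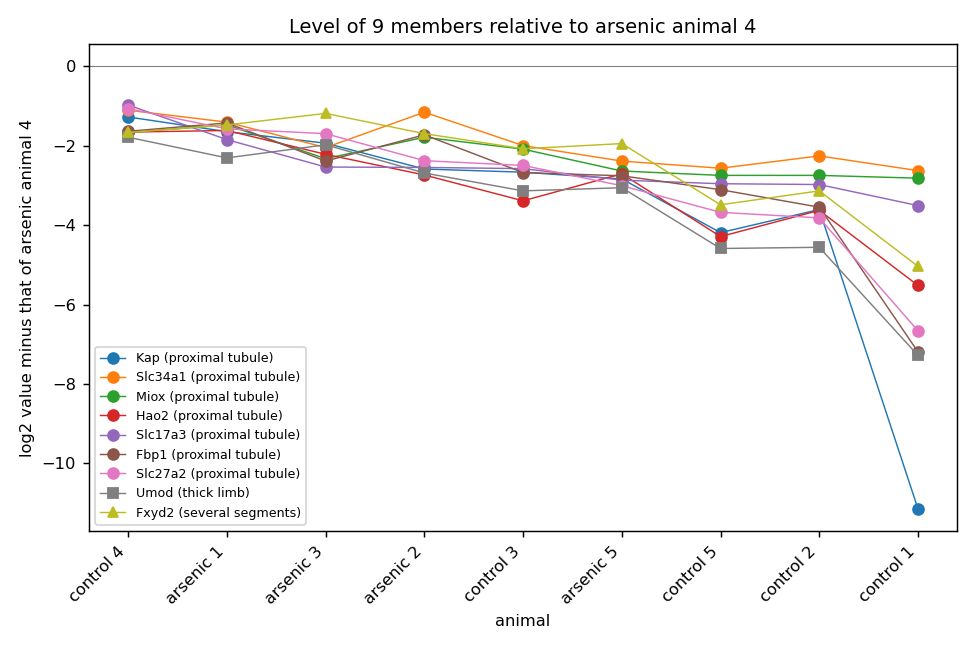
Log2 value of 9 kidney genes minus the same gene's value in arsenic animal 4 (y axis), in the other 9 animals (x axis). Animals are ordered by the median of the 9 genes, except that control animal 4 is drawn before arsenic animal 1. Circles mark proximal tubule, the square thick limb and the triangle several segments, and the lines join values of 1 gene. The genes lie 0.98 to 2.31 log2 units below arsenic animal 4 in control animal 4 and arsenic animal 1 and spread from 2.63 to 11.14 below it in control animal 1.

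The question posed by the design is whether the exposed animals differed from the controls. Over the 35 genes the mean log2 value was 3.69, 4.35, 4.65, 5.29 and 4.30 in control animals 1 to 5 and 5.15, 4.88, 4.96, 6.07 and 4.62 in arsenic animals 1 to 5. The group means were 4.46 ± 0.58 in the controls and 5.13 ± 0.55 in the arsenic animals (SD, n = 5 each), and the groups overlapped. The difference of 0.68 became 0.44 without arsenic animal 4, 0.48 without control animal 1 and 0.25 without both, the last chosen after seeing the data. Leaving out control animal 4, the highest control, gave 0.88. Proximal tubule genes had means of 4.95 ± 0.73 and 5.75 ± 0.71, and thick limb genes of 3.81 ± 0.72 and 4.79 ± 0.79.

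Gene by gene, 0 of the 35 members passed an adjusted p of 0.05 in limma fitted over all genes, where 19 of 18194 genes, or 0.104%, passed. At an unadjusted p under 0.05 there were 6 members and 2323 genes. The smallest adjusted p of a member was 0.318, for Fxyd2, with 6.17 ± 1.32 in the controls and 7.99 ± 0.76 in the arsenic animals (SD, n = 5), a difference of 1.82 (SE 0.64). With the mean of its 4 probe sets, of which 1 was flat at 2.16 to 2.24, the Fxyd2 difference was 1.05. Differences were positive for 25 of 35 members, with a median of 0.416, against 45.4% of all genes and a median of -0.01. All 17 high genes had overlapping groups. They also had the higher mean in the arsenic group, which their choice for a high value in 1 arsenic animal favours. Since the genes were chosen on these arrays, none of this is independent evidence on the exposure.

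The larger differences depended in part on the animals at the ends of the series. Leaving out the lowest control or the highest arsenic animal must shrink a positive difference, so that direction was fixed in advance. Without control animal 4, the difference grew to 3.60 for Kap, 3.22 for Keg1, 2.88 for Umod and 2.17 for Fxyd2. Kap had 8.82 ± 3.83 in the controls and 11.60 ± 1.12 in the arsenic animals, a difference of 2.78 (SE 1.67, limma adjusted p = 0.464), and 1.14 without control animal 1. For Umod the means were 6.46 ± 2.04 and 8.72 ± 1.19, with a difference of 2.26 (SE 0.99, adjusted p = 0.389) and 1.01 without control animal 1 and arsenic animal 4. Keg1 had 4.06 ± 1.92 and 6.53 ± 1.58, a difference of 2.47 (SE 1.04, adjusted p = 0.380) and 1.60 without both animals. The Fxyd2 difference was 1.01 without both. Fbp1 went from 1.97 to 1.08, and Slc27a2 from 1.82 to 1.04, without control animal 1. For Cubn the difference of 0.84 became 0.20, for G6pc 0.56 became 0.07 and for Slc12a1 0.70 became 0.21 when arsenic animal 4 was left out.

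The 5 arsenic values did not overlap the 5 control values for 2 members, and for 770 genes, or 4.23%, of the table. The 2 were Nphs1 and Kcnj1, which were dim throughout. Their differences were -0.05 and -0.03, and 0.01 and 0.04 when each array was centred on its median.

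Other kidney genes were taken from a list outside the 35, drawn up by segment with earlier results of these data known; 67 of 80 were measured. In arsenic animal 4, 18 of the 67 stood at least 1 log2 unit above the other arrays, among them 17 of 43 proximal tubule genes and 1 of 6 thick limb genes, against 0 of 3 glomerular, 0 of 4 distal tubule and 0 of 11 collecting duct genes. Control animal 4 had 7 such genes, arsenic animals 2 and 3 had 5 each, arsenic animal 1 had 4, control animals 1 and 5 had 2 each and the remaining animals had 0. Of the 67, 26 were highest in arsenic animal 4, as were 4.77% of all genes, and 20 in control animal 5, as were 22.8% of all genes. The 26 had a median range of 2.47 log2 units over the animals and the 20 a median range of 0.11. The median difference between the groups was 0.153, with 39 of 67 positive, and 0 passed in limma (smallest adjusted p = 0.0537; 4 at an unadjusted p under 0.05). A difference between segments was not tested, and in other animals collecting duct genes stood high too, such as Aqp3 in control animal 4 and arsenic animal 3.

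Mep1a, a brush border protease, read 1.68, 2.82, 2.77, 5.35 and 1.73 in the controls and 5.11, 3.79, 4.82, 7.78 and 3.59 in the arsenic animals, with the same first, second and last animal as Kap. Slc22a19, Slc22a7 and Slc6a18, all proximal tubule transporters, read 6.66, 6.30 and 6.38 in arsenic animal 4, with a highest value of 3.71, 3.70 and 4.40 in any other animal. Egf, the growth factor precursor made by the thick limb and distal tubule, read 6.00 in arsenic animal 4, 3.97 in control animal 4 and between 2.03 and 3.68 elsewhere. Kl, the distal tubule co-receptor klotho, reached 2.72 in arsenic animal 4 and 2.38 in arsenic animal 1, and lay between 2.05 and 2.17 in the other animals.

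Other genes of the list were bright in lung or followed other animals. In the thick limb list Cldn10 ran from 10.14 to 11.25 and Ptger3 from 4.61 to 6.46, both highest in an animal other than arsenic animal 4, while Bsnd stayed between 1.86 and 1.97. Among distal tubule genes Trpm6 ran from 9.45 to 9.74, Wnk4 from 6.29 to 6.86 and Klk1 from 5.57 to 6.15. Of the collecting duct genes, Slc26a4 was highest in control animal 1 at 8.22, Aqp3 in arsenic animal 3 at 6.60, and Atp6v1b1 and Fxyd4 in control animal 5 at 4.64 and 5.47. The podocyte genes Kirrel, Synpo and Ptpro lay at 7.48 to 8.45, 10.15 to 10.67 and 4.87 to 5.46. None of these put arsenic animal 4 first.

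Close relatives of the kidney genes that lung makes itself served for comparison. Slc34a2, the lung counterpart of the phosphate cotransporter Slc34a1, read 14.40 to 14.60, and lowest in arsenic animal 4. Slc12a2, the relative of Slc12a1, read 10.45 to 11.55, and Lrp1, the relative of megalin, 9.93 to 10.50. The water channels Aqp1 and Aqp5 read 13.63 to 14.14 and 12.20 to 12.70, and Slc3a2, the relative of Slc3a1, 11.52 to 11.98. The ranges were 0.20 for Slc34a2 against 2.63 for Slc34a1, 1.10 for Slc12a2 against 2.75 for Slc12a1, and 0.46 for Slc3a2 against 2.93 for Slc3a1. They were 0.57 for Lrp1 against 0.98 for Lrp2, and 0.51 and 0.50 for Aqp1 and Aqp5 against 0.15 and 0.07 for the dim Aqp2 and Aqp6.

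Marker lists of other organs were read in the same animals. The mean of 14 liver genes was 2.42 to 2.73 in the controls and 2.33 to 2.74 in the arsenic animals, and 11 of the 14 never passed the table median. The mean of 11 adrenal genes was 2.49 to 2.51 and 2.45 to 2.51, with 10 never above it. Likewise never above were 6 of 7 pancreas genes, 6 of 6 intestine genes, 3 of 3 thyroid genes and 5 of 7 skeletal muscle genes. None of these lists had its highest animal in arsenic animal 4. Single genes of them did pass the mark: hepcidin (Hamp) ran from 4.50 to 7.86, highest in arsenic animal 2, Pnmt from 4.65 to 4.98 and Cela1 from 5.33 to 6.14.

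Heart and adipose genes were bright and varied between animals in an order of their own. The mean of 7 heart genes was 9.93, 7.89, 9.94, 10.65 and 9.79 in the controls and 8.71, 9.37, 10.85, 9.86 and 7.28 in the arsenic animals. That of 5 adipose genes was 7.94, 5.55, 6.62, 7.87 and 6.80, and 6.68, 6.61, 8.65, 6.79 and 5.56. Control animal 1, lowest for 15 of the 35 kidney genes, was thus second for adipose genes, and arsenic animal 3 led both lists. Adipoq, which encodes adiponectin, read 9.99 in control animal 1 and 7.41 in arsenic animal 4. The mean of 11 lung epithelial genes stayed between 13.59 and 13.83, with the lowest value in arsenic animal 4. The part of these tissues in the kidney values was not tested.

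**Figure D4:**
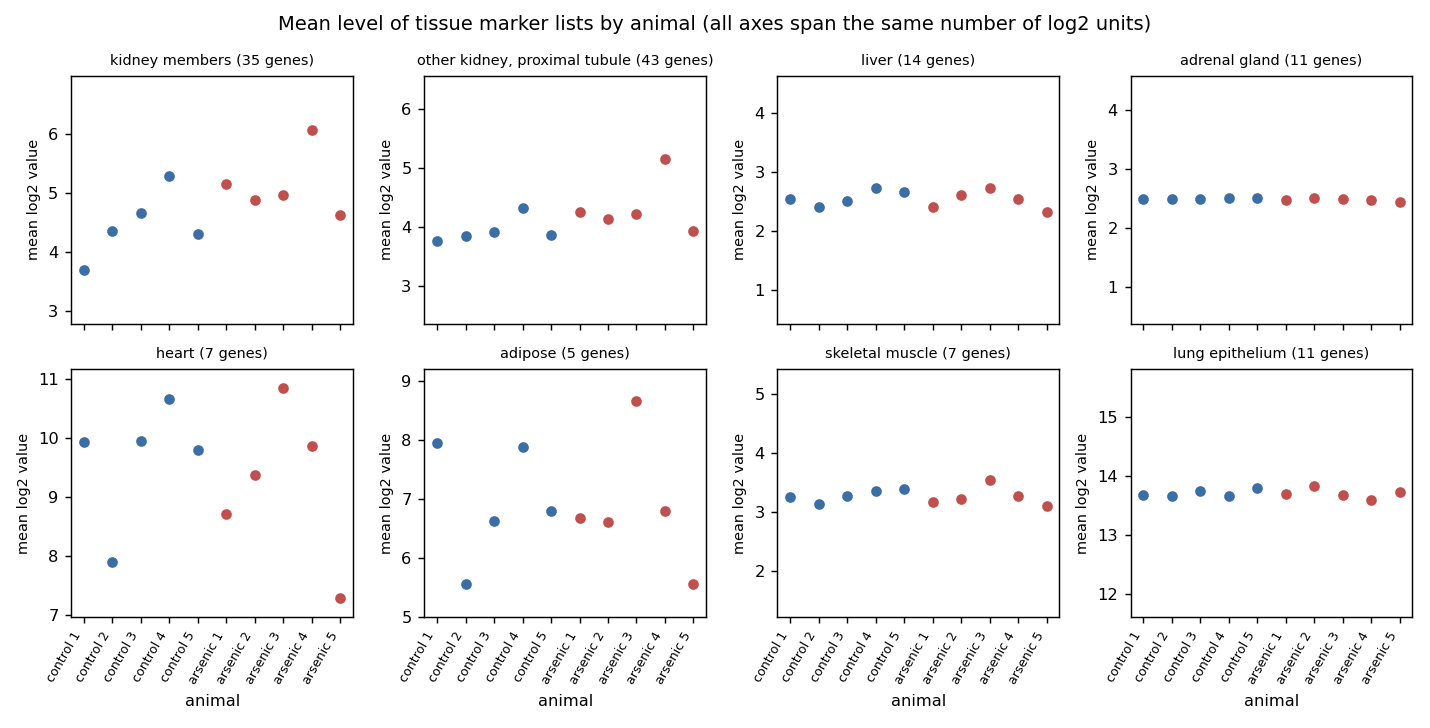
Mean log2 value of each gene list (y axes, all spanning the same number of log2 units) in each of the 10 animals (x axis; blue, controls; red, arsenic animals; 1 point per animal). Kidney lists peak in arsenic animal 4 (6.07 for the 35 genes), heart and adipose lists peak in arsenic animal 3 (10.85 and 8.65), and the liver and adrenal lists stay below 2.8 in all animals.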

How the data were processed

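Per the labels' protocols, lung RNA was prepared with Trizol and a Qiagen cleanup and labelled with biotin. The authors deposited 1 log2 value for each of 45101 probe sets and array. The submitters' processing notes name GCRMA, with no version given in the sources used here. GCRMA gathers dim probe sets near a floor, where differences are understated. That values are log2 was read from their range, 0.619 to 16.3.

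Gene names came from the platform's annotation (34958 with 1 symbol, 932 with several, 9211 with none). Each gene was represented by its single-symbol probe set with the highest mean over 10 arrays, without a filter on dim values, since a filter on several arrays drops transcripts bright in few animals. limma 3.58.1 in R 4.3.3 (lmFit, eBayes) compared 5 arrays with 5, with no covariates and Benjamini-Hochberg adjustment over 18194 genes; an adjusted p under 0.05 counted as a call. The fit was tested on simulated data. The number of arrays limits the precision. The members and the gene lists were chosen with earlier results of these data known. 1 listed symbol was renamed through RefSeq. Genes named are the 35 members, up to 4 other kidney genes per segment with the largest gap between the highest animal and the median of the other 9, up to 3 brightest genes of each other-tissue list, all 6 lung relatives, and the 6 unlisted genes highest above the other arrays in each animal with at least 10 high members. Promoters (250 bases upstream) are RefSeq's for GRCm38.p6, found for 29 of the 35 members. Calb1, Slc5a2, Fxyd2, Slc7a13, Cdh16 and Slc13a1 were not matched. Alternatives were other filters, probe set rules, normalizations, prior variances, a replicate block, other steps for a high value and leaving out animals.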

Additional observations from a re-analysis of the deposited data

Results flagged for a closer look

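In groups of 5 animals, the highest or lowest value was set apart where its gap to the nearest other value exceeded 0.71 of the group's range. Of the 70 groups checked (35 genes, both exposures), 13 met this; chance gives about 1 in 20 groups, and 9.29% of the groups of all 18194 genes met it. The genes were chosen for varying between these animals, so nothing is read from the count. Most of these values belonged to the animals with high kidney transcripts. Arsenic animal 4 stood apart at the top of its group for Pdzk1 (6.58), G6pc (4.70), Slc13a3 (9.03) and Slc22a6 (3.42). Control animal 4 stood apart at the top of the controls for Slc3a1 (5.69), Cubn (4.64), Slc12a1 (3.11), Slc5a8 (5.03) and Kcnj1 (2.19). Arsenic animal 3 did so for Slc5a8 (5.31). At the bottom of their groups were arsenic animal 5 for Nphs1 (2.16) and Slc7a13 (2.67), and control animal 2 for Slc7a13 (2.66). The values of Kcnj1, Nphs1 and Slc7a13 are dim throughout, and their gaps are a small part of a log2 unit.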

How the results depend on the processing

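In all 19 alternatives 0 members passed in limma, with 1 to 11 at an unadjusted p under 0.05. The difference of the mean over the members, 0.68, kept its sign: it was 0.63 to 0.74 with other normalizations or the mean of a gene's probe sets, 1.19 and 1.07 over the 17 and 22 members left by filters at the table median on 5 arrays and on 1 array, 0.44 to 0.88 leaving out 1 animal, 0.42 without control animal 2 and arsenic animal 4, and 0.25 without control animal 1 and arsenic animal 4 (added after seeing the data). The 19 genes called in the whole table became 54 and 47 with those filters, which test fewer genes, 47 with median centring, 37 with a trended prior variance, 1 to 37 leaving out 1 animal, and 0 without either of those pairs of animals (2981 and 2076 at an unadjusted p under 0.05); beyond the fewer genes or animals, the cause was not tested. With the replicate number as a block 0 genes were called (2650 at an unadjusted p under 0.05). Animals sharing a number had deviations correlated at -0.33 to 0.25, and 0 of 10 correlated best with their own number, so the numbers were not taken to pair them. The 17 members high in arsenic animal 4 became 15 at a step of 2 log2 units and 22 at 0.5. The 11 in control animal 4 became 2 at a step of 2, 8 with the filter on 5 arrays, 9 with median centring and 10 to 13 leaving out another animal. Leaving out 1 animal gave 2 to 5 in arsenic animal 3 and 0 to 1 in arsenic animal 2. Of the single members' differences, 545 stayed within the spread between animals and 19 moved by more. The dim range limits what can be said of 13 members that never passed the table median.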

Other observations

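Genes in none of the lists were read in the 2 animals with at least 10 high kidney genes. In arsenic animal 4 the 6 furthest above the other arrays were Akr1c18 (a steroid dehydrogenase), Aadat (an aminotransferase of lysine and tryptophan breakdown), Cyp2j5 (a cytochrome P450 abundant in mouse kidney), Guca2b (uroguanylin), Ugt3a2 (a glycosyltransferase) and Wfdc15b. Aadat read 3.05, 5.12, 6.38, 8.35 and 5.56 in the controls and 8.0, 6.61, 7.45, 9.99 and 6.10 in the arsenic animals, with the same first, second and last animal as Kap. Akr1c18 read 7.80 in arsenic animal 4 and 6.08 in control animal 4, Cyp2j5 6.41 and 5.13, and Ugt3a2 8.24 and 6.70, each with control animal 4 second. Guca2b had 7.41 in arsenic animal 4 and 5.48 in arsenic animal 2, and Wfdc15b 5.22 in arsenic animal 4 against at most 2.27 elsewhere.

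In control animal 4, 5 of the 6 such genes followed another order. Krt15 (a basal epithelial keratin) read 5.25 in control animal 4, 5.02 in arsenic animal 3 and 4.07 in control animal 1, and at most 1.81 in the others. Car3 (a carbonic anhydrase abundant in fat), Alox15, Cdh26 and Ltf (lactoferrin) were highest in arsenic animal 3, at 13.29, 9.03, 7.88 and 13.21, with control animals 1 and 4 next in either order. In arsenic animal 4 they read 10.24, 3.23, 4.40 and 10.52. The sixth, Akr1c18, was the only gene among the top 6 of both animals.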
